A study of Mus musculus with 24 samples.

Results

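The DNA replication genes described here are 42 mouse genes for origin licensing, the replication fork, the supply of nucleotides and the chromatin laid down behind the fork. They were taken by gene symbol from the 48544 genes in the deposited tables. All 42 were found, Pclaf under its older name 2810417H13Rik. They were followed in C2C12, an established line of mouse myoblasts, muscle precursors that stop dividing in low serum and join into myotubes with many nuclei. Polyadenylated RNA from 24 wild-type C2C12 libraries in 6 groups of 4 was sequenced to compare differentiation with the effect of dexamethasone, a synthetic glucocorticoid used to make cultured myotubes atrophy. Day 8 and day 10 myotubes had received 100 µM dexamethasone for 24 h or 72 h in 2% serum. Their controls had been kept for 24 h or 72 h in 2% serum with the vehicle, 1% ethanol, which the labels name for the control medium alone. The remaining groups were day 7 myotubes in 2% serum and undifferentiated day 0 myoblasts in 10% serum. The labels do not say that unfused cells were removed, and they do not give the source of the replicates. A p-value here therefore reflects only how far these libraries scatter, and that scatter may be technical.

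Before a cell copies its DNA, the origin recognition complex with Cdc6 and Cdt1 loads the MCM2-7 ring onto origins in an inactive form. At the start of S phase, Cdc45 and the 4-subunit GINS complex join the ring, turn it into an active helicase, and primase and the replicative polymerases start synthesis on a sliding clamp of PCNA placed by the RFC clamp loader. In proliferating cells most of these genes are switched on together near the G1/S border by E2F transcription factors. In differentiating muscle the retinoblastoma proteins and the inhibitor p21, encoded by Cdkn1a, hold this programme down.

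Levels are given as TPM, a length-scaled abundance that can be compared between genes, and errors are SD over 4 libraries. Tests used the authors' log2 table with limma. A gene was called when its Benjamini-Hochberg adjusted p over 16257 genes was below 0.05. Differences in that table are shrunken: among expressed genes they changed by 0.67 for each unit of log2 TPM in the dexamethasone comparisons and by 0.64 in differentiation. Folds are therefore ratios of mean TPM, given where both means reached 0.5 TPM. All 42 genes passed the filter on low values, and all 42 would pass it with the libraries of any 1 group left out. Sequencing depth is unknown, because neither table holds counts.

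Both replicate 1 libraries at 72 h held some RNA of genes otherwise seen in the other group. In the dexamethasone 72 h replicate 1, 5 genes that were below 0.5 TPM in the other 3 libraries and at 5 TPM or more in every vehicle 72 h library reached 15.8%, as a median, of the level seen in vehicle replicate 1. In the vehicle 72 h replicate 1, 9 such genes reached 13.0%, as a median, of the level seen in dexamethasone replicate 1. In vehicle 72 h replicate 2 there were 2 such genes, at a median of 80.9%, and in each of the other libraries at 72 h the median was 0. Results at 72 h include all libraries. The count of called members and the folds of Pclaf, Uhrf1, Mcm5 and Mcm7 are also given without the replicate 1 pair. The identity of the cultures fitted the labels by muscle genes: Myog, a regulator of myoblast fusion, was at 1154 ± 164 TPM in day 7 myotubes and 66.2 ± 16.4 TPM in day 0 myoblasts. All 12 myotube markers were called higher in day 7 myotubes, where 30.5% of all genes were called higher. Between 12428 and 13030 genes per library reached 1 TPM.

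Start regions of some of the genes carry letters known as E2F sites, and examples are shown as a description. Whether these letters had a part in any change of level was not tested. The motif search used the 8-letter forms TTTCCCGC, TTTGGCGC, TTTCGCGC and TTTGCCGC on both strands, where matches may overlap. It covered 300 bases per promoter from 250 bases before the start to 50 after it, in RefSeq sequences on build GRCm38.p6. A match was found in 14 of the 36 members that have an entry, or 34.1% of their 41 promoters, and in 2.26% of all 32851 promoters of the same length. Among the 8610 promoters with a GC content at or above the member median of 61.3%, the share was 4.33%. The CCAAT box, searched as ATTGG, was in 61.0% of member promoters and 37.4% of all. The CHR element, searched as TTTGAA or TTCGAA, was in 14.6% and 19.2%. The GC box GGGCGG was in 73.2% and 35.7%. The upstream stretches below run 5′ to 3′ on the gene's strand, with capitals marking E2F matches in either orientation.
Cdc6 (chr11:98907982-98908051, plus strand): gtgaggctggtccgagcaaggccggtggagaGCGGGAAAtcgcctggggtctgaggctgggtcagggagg
Orc1 (chr4:108579384-108579453, plus strand): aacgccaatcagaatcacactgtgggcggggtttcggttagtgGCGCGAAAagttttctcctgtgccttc
Mcm5 (chr8:75109329-75109398, plus strand): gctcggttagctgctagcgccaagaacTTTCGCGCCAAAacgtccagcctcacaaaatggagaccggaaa
Mcm6 (chr1:128359714-128359783, minus strand): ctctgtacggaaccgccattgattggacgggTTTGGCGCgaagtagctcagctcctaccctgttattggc
Mcm7 (chr5:138172010-138172079, minus strand): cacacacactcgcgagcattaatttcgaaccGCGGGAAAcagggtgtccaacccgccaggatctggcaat
Uhrf1 (chr17:56304097-56304166, plus strand): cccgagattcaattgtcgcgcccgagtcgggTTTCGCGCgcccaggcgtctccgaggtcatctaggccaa
Rfc3 (chr5:151651209-151651278, minus strand): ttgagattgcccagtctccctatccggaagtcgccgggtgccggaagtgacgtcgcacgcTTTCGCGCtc
The Mcm5 stretch holds 2 overlapping matches in opposite orientations, and each of the other 6 holds 1. A match describes letters and was not tested as a binding site. Rfc3, which was not called in differentiation or at 72 h, carries the letters too.

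During differentiation nearly the whole replication machinery fell. In day 7 myotubes the 42 genes together made up 907 ± 135 TPM, against 2944 ± 165 TPM in day 0 myoblasts. Of the 42 genes, 40 were called lower and none higher, with 2 not called. Of all genes tested, 60.3% were called in either direction and 29.8% were called lower. The median fold of the 42 genes was 0.22, and the median log2 difference was −1.54 against 0.02 over all genes. By TPM, 41 of the 42 genes had all 4 myotube libraries below all 4 myoblast libraries. How many of all genes separate in this way was not counted, so this number has no background.

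The largest log2 fall of the 42 was that of Uhrf1, and that of Cdc6 was close to it. Uhrf1, which reads hemimethylated DNA behind the fork and recruits the maintenance methyltransferase, was at 9.96, 1.82, 3.02 and 3.30 TPM in the 4 day 7 libraries, against 84.2, 63.9, 75.1 and 63.8 TPM in day 0 myoblasts. Its fold was 0.06 and its log2 difference −3.13 ± 0.34 (SE; limma adjusted p = 5.3e-08). Cdc6, the ATPase that loads MCM rings, was at 2.58, 0.48, 0.67 and 0.66 TPM in day 7 myotubes, against 18.8, 14.3, 16.5 and 14.8 TPM in myoblasts. In both genes replicate 1 of day 7 was the highest of its group, as it was for 38 of the 42 genes, and no library overlapped with the myoblasts.

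Pcna, the sliding clamp, had 129.6, 103, 88.8 and 115 TPM in day 7 myotubes, against 306, 334, 300.3 and 289 TPM in myoblasts, a fold of 0.35 (adjusted p = 2.39e-08). Rrm2, the regulated subunit of ribonucleotide reductase that makes deoxynucleotides, had 143, 134, 156 and 155 TPM in day 7 myotubes, against 391, 363, 411 and 332 TPM in myoblasts. The day 7 values of both genes lay in a narrow range well under the myoblasts. Mcm7, an MCM ring subunit, had 31.4, 19.0, 21.8 and 21.4 TPM in day 7 myotubes, against 92.4, 84.1, 86.7 and 77.5 TPM in myoblasts. Prim1, the catalytic subunit of primase, had 17.5, 10.1, 9.82 and 13.1 TPM in day 7 myotubes, against 52.5, 58.9, 53.1 and 50.2 TPM in myoblasts.

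Gins4, Rfc3, Rpa3 and Orc6 had the smallest differences between the groups. Gins4 of the GINS complex was at 32.4, 28.3, 28.7 and 30.96 TPM in day 7 myotubes, against 38.2, 42.4, 37.2 and 37.3 TPM in myoblasts, a fold of 0.78 that was not called (log2 difference −0.19 ± 0.09, adjusted p = 0.0641). Its groups did not overlap, and on the scale of log2(TPM + 0.1) it was called lower (adjusted p = 0.0072). Rfc3, a small subunit of the clamp loader, was at 37.7, 60.2, 49.2 and 58.1 TPM in day 7 myotubes and 46.3, 68.2, 51.0 and 46.0 TPM in myoblasts. These ranges overlapped almost wholly (log2 difference 0.03 ± 0.20, adjusted p = 0.915). Rpa3, the smallest subunit of the single-strand binding protein RPA, was at 74.8, 73.7, 53.7 and 71.9 TPM in day 7 myotubes, against 96.4, 122, 88.3 and 103.5 TPM in myoblasts (fold 0.67, adjusted p = 0.0396). Orc6, a subunit of the origin recognition complex, was at 65.2, 84.2, 64.4 and 82.5 TPM in day 7 myotubes, against 86.9, 160.3, 118.5 and 120.3 TPM in myoblasts (fold 0.61, adjusted p = 0.0109). The calls of Rpa3 and Orc6 were lost without day 0 replicate 2, with adjusted p of 0.151 and 0.0635. That of Rpa3 was also lost on leaving out, singly, day 0 replicate 4 (0.0773), day 7 replicate 3 (0.155) or day 7 replicate 4 (0.0557). It was lost too with no filter (0.0717) and with quantile normalization (0.129).

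**Figure D1:**
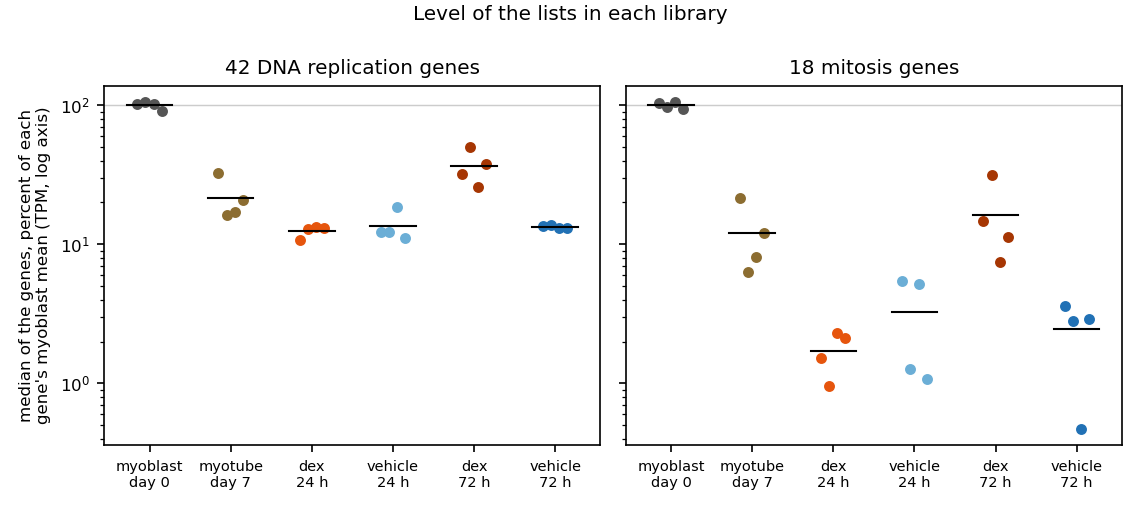
Level of the 42 DNA replication genes (left) and of 18 mitosis genes (right) in each library, as the median over the genes of the TPM in percent of each gene's own myoblast mean, on a log axis. Points are libraries and lines are group means. The 4 dexamethasone 72 h libraries reach 25.7% to 50.3% for the replication genes, above every vehicle 72 h library at 13.0% to 13.8%.

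At 24 h few of the genes were called with dexamethasone, and the calls went in both directions. The median log2 difference of the 42 was −0.15, against −0.01 over all genes, and the median fold was 0.894 over 39 genes. Only 8 of the 42 log2 differences were above 0, a number not counted over all genes. The 42 genes made up 645 ± 87 TPM in dexamethasone myotubes and 627 ± 99 TPM in vehicle myotubes. Rrm2 alone gave 199 ± 42 TPM of the first sum and 96.7 ± 26.7 TPM of the second. By limma 2 were called higher, Rrm2 and Mcm7, and 4 lower, Rfc3, Tyms, Rpa3 and Dut, while 36 were not called. An unadjusted p under 0.05 was found for 11, a threshold at which all genes were not counted. Of all genes, 25.4% were called, 13.2% higher and 12.2% lower. With only the groups compared, 9 members were called, 3 higher and 6 lower, with Cdt1, Mcm6 and Rfc5 gained. On log2(TPM + 0.1) 2 members were called higher and 3 lower, while over all 15250 genes the split was 2132 higher and 1160 lower, against 2143 and 1991 in the log2 table.

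Rrm2 was at 183, 188, 260.4 and 166 TPM in dexamethasone 24 h myotubes, against 66.8, 98.4, 131 and 90.2 TPM in vehicle 24 h myotubes. Every treated library was above every control, with a fold of 2.06 (log2 difference 0.64 ± 0.12 SE, adjusted p = 0.000401). Rfc3 went the other way, at 5.87, 11.3, 13.1 and 8.00 TPM with dexamethasone, against 18.6, 28.1, 49.3 and 28.9 TPM with vehicle. Its fold was 0.31 (log2 difference −1.17 ± 0.20, adjusted p = 0.000177), and its ranges did not overlap. These 2 calls held in every alternative run, with adjusted p up to 0.00911 for Rrm2 and 0.00328 for Rfc3.

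The other 4 calls at 24 h were less stable. Tyms, thymidylate synthase, was at 7.16, 6.12, 8.73 and 5.04 TPM with dexamethasone, against 20.0, 12.0, 22.1 and 10.9 TPM with vehicle, a fold of 0.42 (adjusted p = 0.0127). Rpa3 was at 34.5, 31.3, 35.4 and 26.7 TPM with dexamethasone, against 59.2, 43.6, 52.5 and 46.5 TPM with vehicle, a fold of 0.63 (adjusted p = 0.0138). Neither gene's ranges overlapped. Dut, the enzyme that keeps dUTP out of DNA, had a fold of 0.75 (adjusted p = 0.0427). Mcm7 was at 17.8, 23.2, 27.8 and 26.4 TPM with dexamethasone, against 14.3, 17.7, 17.3 and 15.9 TPM with vehicle, a fold of 1.46 (adjusted p = 0.0498, and 0.0554 with a replicate block). The lowest treated library of Mcm7 was just above the highest control. Without dexamethasone 24 h replicate 4 only 2 members were called, and without vehicle 24 h replicate 3 only 3, while the replicate block called 6, 1 higher and 5 lower, with Pold1 gained (adjusted p = 0.0404). Adjusted p over the alternatives ran from 0.00942 to 0.057 for Tyms, 0.00562 to 0.0596 for Rpa3, 0.0182 to 0.145 for Dut and 0.0178 to 0.141 for Mcm7.

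The remaining named genes were not called at 24 h. Pcna was at 72.2, 79.5, 83.7 and 78.2 TPM with dexamethasone and 86.4, 73.9, 94.8 and 73.6 TPM with vehicle. Uhrf1 was at 0.82, 0.37, 1.10 and 0.28 TPM with dexamethasone and 1.78, 0.57, 2.13 and 0.47 TPM with vehicle. Both genes overlapped between the groups. Cdc6 stayed below 0.6 TPM in all 8 libraries of this comparison. Prim1 averaged 7.38 ± 1.87 TPM with dexamethasone and 9.24 ± 1.36 TPM with vehicle, Gins4 23.4 ± 2.1 and 27.1 ± 3.3 TPM, and Orc6 48.1 ± 8.3 and 61.2 ± 8.9 TPM in the same order. Uhrf1, Prim1, Gins4 and Orc6 were each lower with dexamethasone in 4 of 4 same-numbered pairs. With a replicate block their limma adjusted p was 0.222, 0.178, 0.0972 and 0.0557.

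At 72 h the picture was different: 39 of the 42 genes were called higher with dexamethasone and none lower. The background was 30.3% called in either direction and 15.2% called higher. The 42 genes made up 1292 ± 340 TPM with dexamethasone and 590 ± 62 TPM with vehicle. Their median fold was 2.64 over the 39 genes with 0.5 TPM or more in both groups, and 26 of these were at 2-fold or more and 7 at 5-fold or more. The median log2 difference was 0.99, against 0.01 over all genes. In 38 genes every dexamethasone library was above every vehicle library by TPM, a separation that was not counted over all genes. Orc6, Rfc3 and Rpa3 were not called. Across the alternatives 36 to 39 genes were called higher, and 38 without both replicate 1 libraries, where the call of Gins4 was lost. Without that pair the folds were 16.2 for Pclaf, 14.35 for Uhrf1, 12.8 for Mcm5 and 2.31 for Mcm7, against 13.45, 9.67, 10.1 and 2.16 with it. In bulk RNA, more cells that express these genes and more of their RNA per cell cannot be told apart.

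**Figure D2:**
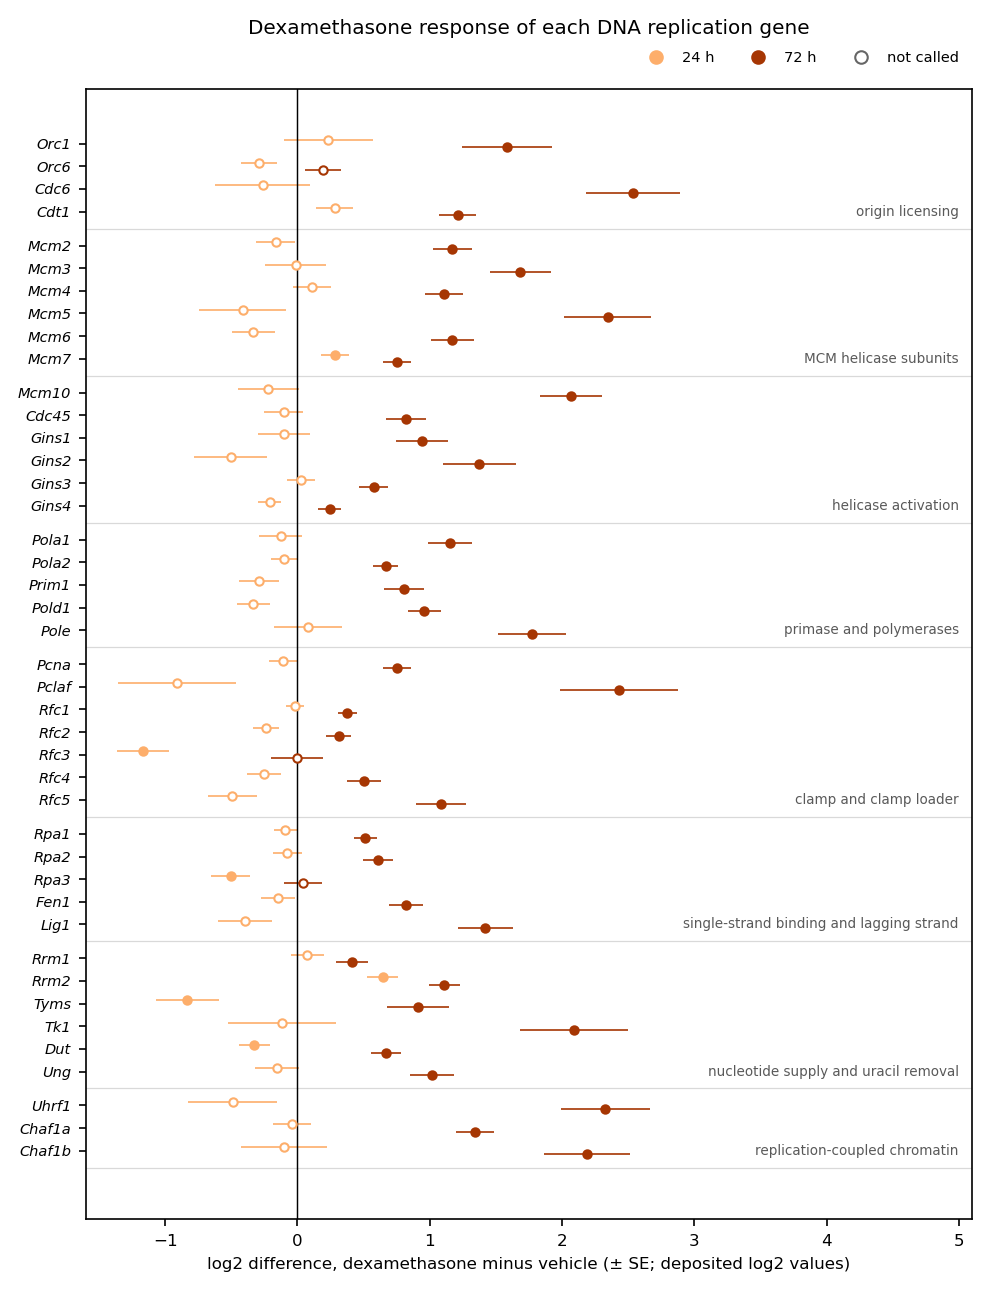
Log2 difference, dexamethasone minus vehicle, for each of the 42 genes at 24 h (light) and 72 h (dark), from the authors' log2 table with limma standard errors. Filled points were called at an adjusted p below 0.05. At 72 h 39 points are filled and all lie to the right of 0, and Orc6, Rfc3 and Rpa3 are open.

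Of the 4 licensing genes 3 rose at 72 h. Cdc6 had the largest log2 difference of the 42, at 5.17, 7.14, 2.88 and 5.80 TPM with dexamethasone, against 0.91, 0.31, 0.09 and 0.50 TPM with vehicle (2.54 ± 0.36 SE, adjusted p = 1.56e-05). Every treated library was above every control. Cdt1, its partner in MCM loading, averaged 11.8 ± 2.3 TPM with dexamethasone and 3.43 ± 0.54 TPM with vehicle, a fold of 3.44 (adjusted p = 1.66e-06). Orc1, the ATPase subunit of the origin recognition complex, averaged 1.78 ± 0.79 TPM and 0.32 ± 0.13 TPM in the same order (adjusted p = 0.00107). Orc6 was at 61.0, 92.7, 56.2 and 79.8 TPM with dexamethasone and 55.9, 68.2, 49.3 and 65.3 TPM with vehicle. Its ranges overlapped, and the log2 difference of 0.19 ± 0.14 was not called (adjusted p = 0.316).

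All 6 MCM ring subunits rose at 72 h, with folds from 2.16 for Mcm7 to 10.1 for Mcm5. Values in every library are given for Mcm5, and below for Pclaf and Tk1 as for Tyms above, by choice after they were seen. Mcm5 was at 18.7, 30.3, 11.9 and 22.4 TPM with dexamethasone, against 3.20, 2.11, 0.49 and 2.43 TPM with vehicle (adjusted p = 1.41e-05). Mcm7 was at 31.4, 48.7, 30.3 and 37.0 TPM with dexamethasone, against 18.0, 18.9, 14.2 and 17.2 TPM with vehicle (adjusted p = 1.38e-05). Neither gene overlapped between the groups. Mcm2, Mcm3, Mcm4 and Mcm6 had folds of 3.34, 5.51, 3.10 and 3.32.

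All 6 genes for turning the ring into a helicase rose as well. Mcm10, a factor needed for origin firing, averaged 3.56 ± 1.41 TPM with dexamethasone and 0.40 ± 0.11 TPM with vehicle (log2 difference 2.07, adjusted p = 1.25e-06). Among the GINS subunits the folds were 2.79 for Gins1, 4.38 for Gins2 and 1.81 for Gins3. Gins4 was at 27.2, 37.7, 24.5 and 32.3 TPM with dexamethasone, against 22.2, 24.5, 22.4 and 25.9 TPM with vehicle. Its fold of 1.28 was the smallest among the called genes, its ranges overlapped, and its call (adjusted p = 0.0405) was lost in 8 alternatives, among them the omission of dexamethasone 72 h replicate 2 (0.166) or replicate 4 (0.117). Cdc45 had a fold of 2.37.

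Primase, polymerases, the clamp and most of the clamp loader rose together. Prim1 was at 17.0, 28.7, 13.9 and 25.2 TPM with dexamethasone, against 9.45, 8.69, 8.67 and 9.56 TPM with vehicle, a fold of 2.33 (adjusted p = 0.000335). Pcna was at 151, 214.5, 129 and 185 TPM with dexamethasone, against 82.3, 80.2, 76.0 and 76.5 TPM with vehicle, a fold of 2.16 (adjusted p = 1.17e-05). In both genes the treated libraries were spread widely above a tight control group. A pseudogene of Pcna, Pcna-ps2, was listed at 36.6% of Pcna's mean TPM and at 62.1 TPM with dexamethasone and 30.4 TPM with vehicle at 72 h. The split of reads between the 2 near-identical copies, and so the level of Pcna, is uncertain. Pclaf, a PCNA-bound factor, was at 29.0, 55.5, 8.57 and 26.1 TPM with dexamethasone, against 3.28, 2.54, 0.33 and 2.70 TPM with vehicle, and its fold of 13.45 was the largest of the 39. Pole, the leading-strand polymerase, had a fold of 6.21, while Pola1, Pola2 and Pold1 had folds of 3.30, 1.99 and 2.64.

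Within the clamp loader the 5 subunits did not move alike. Rfc5, Rfc4, Rfc1 and Rfc2 had folds of 3.14, 1.68, 1.45 and 1.37, all called. The call of Rfc2 was lost without dexamethasone 72 h replicate 2 (adjusted p = 0.0669) or without vehicle 72 h replicate 2 (0.0537). Rfc3 was at 16.2, 24.1, 11.6 and 19.2 TPM with dexamethasone and 13.5, 23.7, 13.6 and 21.8 TPM with vehicle, which is a nearly complete overlap (log2 difference −0.01 ± 0.20, adjusted p = 0.985). Rfc3 had been lower in dexamethasone at 24 h, and its difference between the responses, 1.16 ± 0.28, was called (adjusted p = 0.00898). In vehicle its mean was 18.1 TPM at 72 h and 31.2 TPM at 24 h, a difference that was not called (adjusted p = 0.074) except with a replicate block (0.0418).

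Genes of the lagging strand and of single-strand binding rose with 1 exception. Lig1, the ligase that joins Okazaki fragments, averaged 8.85 ± 3.60 TPM with dexamethasone and 1.99 ± 0.53 TPM with vehicle, a fold of 4.46. Fen1, the flap nuclease, had a fold of 2.36, and Rpa1 and Rpa2 had folds of 1.68 and 1.86. Rpa3 was at 52.2, 48.5, 31.2 and 42.3 TPM with dexamethasone and 51.1, 46.4, 27.9 and 44.8 TPM with vehicle. The ranges were almost the same, and the log2 difference of 0.04 ± 0.15 was not called (adjusted p = 0.869).

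For nucleotide supply, Rrm2 was called again, at 221, 371, 228 and 261 TPM with dexamethasone, against 80.1, 96.7, 71.3 and 98.1 TPM with vehicle. Its fold was 3.12 (adjusted p = 7.05e-07), and no library overlapped. Rrm2 was the only gene of its class called higher at 24 h too. The difference between its responses, 0.47 ± 0.17, was not called (adjusted p = 0.0724). Tk1, which salvages thymidine, was at 28.8, 48.3, 13.0 and 27.0 TPM with dexamethasone, against 5.63, 3.71, 0.49 and 4.57 TPM with vehicle, a fold of 8.13. Tyms and Dut, both lower at 24 h, were higher at 72 h with folds of 2.59 and 1.99. Rrm1, the large reductase subunit, had a fold of 1.53 (adjusted p = 0.0147, and 0.074 without dexamethasone 72 h replicate 2). Ung, which removes uracil from DNA, had a fold of 2.72.

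All 3 chromatin genes of the fork rose, with a median fold of 8.69. Uhrf1 was at 14.8, 21.6, 9.20 and 16.5 TPM with dexamethasone, against 3.13, 1.26, 0.54 and 1.49 TPM with vehicle, a fold of 9.67 (adjusted p = 2.15e-05). All treated libraries were above all controls. Chaf1b and Chaf1a, subunits of the histone chaperone CAF-1, had folds of 8.69 and 4.00.

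Within groups the 42 genes also varied together by library. In the dexamethasone 72 h group replicate 2 was the highest library for 40 of the 42 genes and replicate 3 the lowest for 38. In vehicle 72 h replicate 3 was the lowest for 30. In vehicle 24 h replicate 3 was the highest for 32 genes, and in dexamethasone 24 h replicate 3 for 31. The SD of the summed level was accordingly large in dexamethasone 72 h, at 340 TPM on a mean of 1292 TPM.

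**Figure D3:**
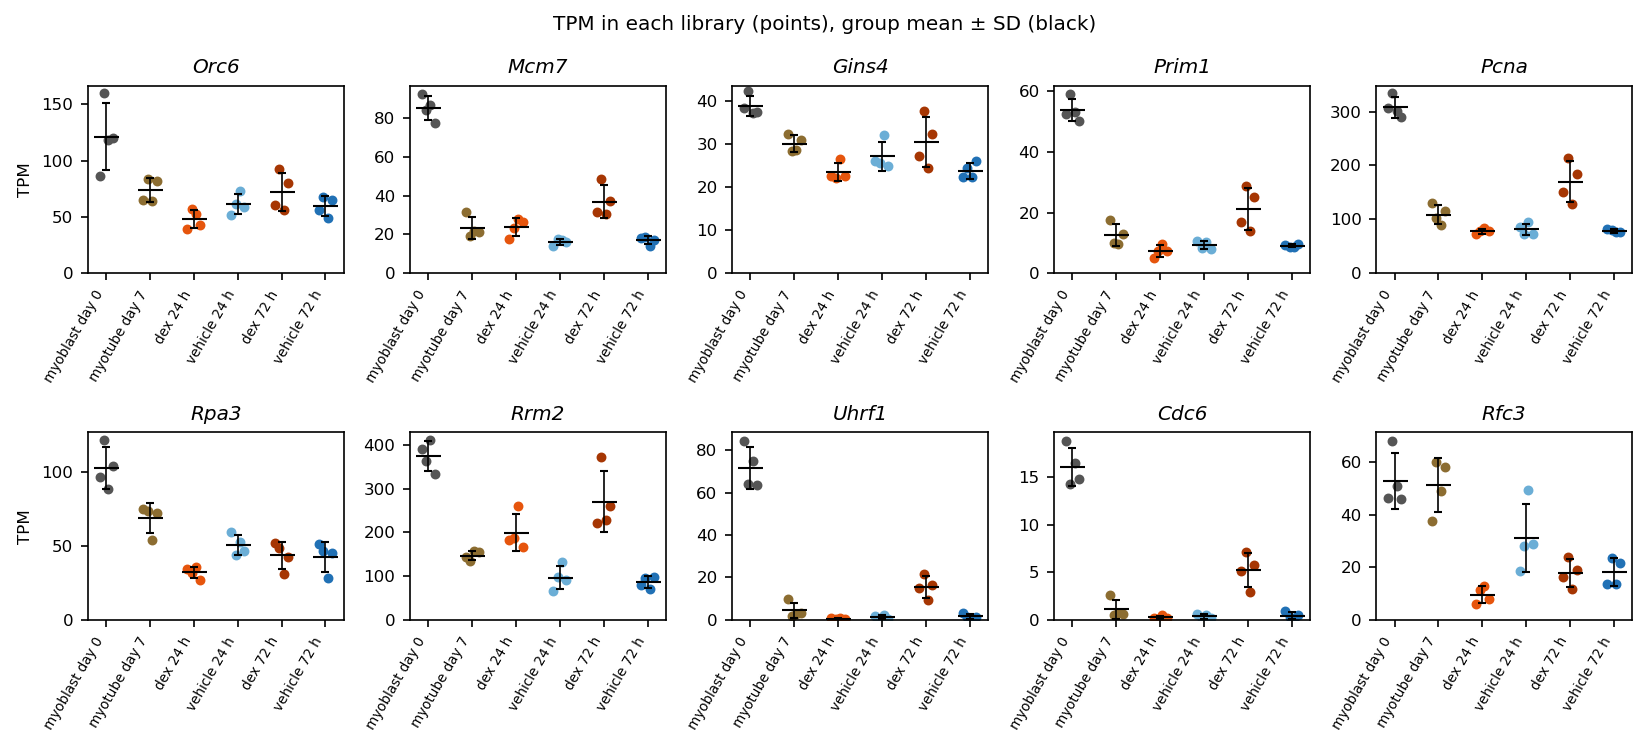
TPM of 10 replication genes in each library (points) by group, with the group mean and SD in black. Groups run from day 0 to 72 h with dexamethasone left of its vehicle. Cdc6 and Uhrf1 have their highest group means in day 0 and then in dexamethasone 72 h, while Rfc3 at 72 h is at the same level with and without dexamethasone.

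The change between the 2 times was itself tested. The response at 72 h minus the response at 24 h was called higher in 37 of 42 genes and lower in none, where 11.3% of all genes were called in either direction and 5.56% higher and 5.77% lower. The median of this difference was 1.12 on the log2 scale, and the largest were 3.34 for Pclaf, 2.82 for Uhrf1 and 2.80 for Cdc6. Orc1, Orc6, Rpa3, Rrm1 and Rrm2 were not called, with values from 0.34 to 1.35. With a replicate block Orc6 (adjusted p = 0.0471) and Rpa3 (0.0474) were called as well. Over the alternatives 34 to 39 genes were called higher. On log2(TPM + 0.1) the split over all genes was 599 higher and 1057 lower, against 904 and 938 in the log2 table, with a median shift of −0.12 over all genes and 1.54 over the 42.

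Among the 42, the genes that fell further in differentiation were mostly those that rose further with dexamethasone at 72 h. Across the 42 genes, the log2 difference of day 7 minus day 0 and that of dexamethasone minus vehicle at 72 h had a Pearson r of −0.92 and a Spearman rho of −0.96. These comparisons have no library in common, but the genes share libraries within each, so this is a description over genes. The correlation was not computed over all genes, so it has no background. The 14 genes with the largest fall had medians of 1.92 at 72 h and −2.27 in differentiation. The 14 with the smallest fall had medians of 0.46 and −0.87. Members with an E2F match had a median log2 difference of 1.32 at 72 h (14 genes, −0.01 to 2.54). The other 28 had 0.82 (0.04 to 2.19), and among them are the 6 members with no promoter entry, which were not searched. The difference was not tested.

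The rise at 72 h stopped short of the myoblast level. All 42 genes were called lower in dexamethasone 72 h myotubes than in day 0 myoblasts, where 63.1% of all genes were called and 33% were lower and 30.1% higher. By mean TPM they stood at 20.3% (Pclaf) to 78.5% (Gins4) of their myoblast level, with a median of 37.5%, against medians of 13.4% in vehicle 72 h and 22.0% in day 7 myotubes. In dexamethasone 72 h myotubes against day 7 myotubes, 26 genes were called higher and 2 lower, Rfc3 and Rpa3, where 47.7% of all genes were called, 23.8% higher and 23.9% lower. Cdc6 had a fold of 4.78 in this comparison, Uhrf1 3.44 and Mcm5 3.07. The ranges of Cdc6 did not overlap, while those of Uhrf1 and Mcm5 did. Rfc3 had a fold of 0.35 and Rpa3 of 0.64, both with no overlap. On log2(TPM + 0.1) 3935 genes of the whole table were higher and 2912 lower here, against 3874 and 3887 in the log2 table.

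**Figure D4:**
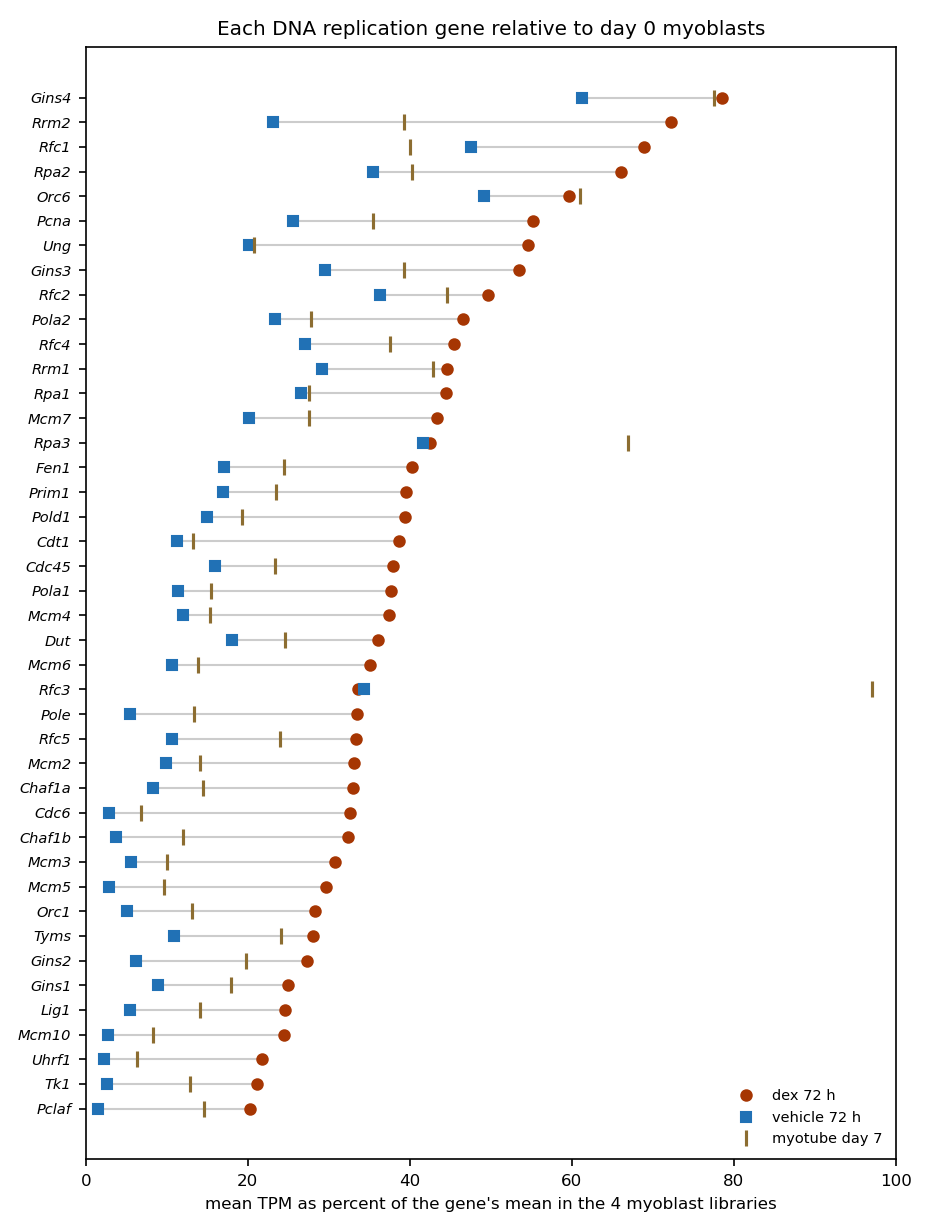
Mean TPM of each of the 42 genes in dexamethasone 72 h, vehicle 72 h and day 7 myotubes, in percent of its mean in the 4 myoblast libraries. Genes are ordered by the dexamethasone value, from 78.5% for Gins4 to 20.3% for Pclaf. Rfc3 and Rpa3 are the genes in which day 7 lies far to the right of both 72 h groups.

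The balance between subunits of a complex was described by the ratio of the highest subunit to the lowest in each library. In the MCM ring the highest subunit was 2.16 ± 0.31 times the lowest in dexamethasone 72 h, against 12.6 ± 10.9 times in vehicle 72 h, where the 4 libraries ran from 5.64 to 28.9. In day 7 myotubes the ratio was 4.43 ± 1.32, against 1.79 ± 0.07 in day 0 myoblasts. At 24 h it was 21.5 ± 9.3 with dexamethasone and 11.1 ± 7.1 with vehicle. Mcm7 was the top subunit in all 5 myotube groups, and Mcm5 was the lowest in 4 of them. The highest ratios rest on low values of Mcm5. It was at 0.70 TPM in dexamethasone 24 h replicate 2 (ratio 33.3) and 0.49 TPM in vehicle 72 h replicate 3 (28.9). With depth unknown, such ratios are uncertain. In GINS the ratio was 5.09 ± 1.09 in dexamethasone 72 h, against 11.9 ± 4.2 in vehicle 72 h, with Gins4 on top in both. In RFC it was 3.15 ± 0.62 and 6.98 ± 1.33, and in RPA 2.48 ± 0.25 and 3.36 ± 0.60, in the same order. RPA did not follow the level of the replication genes, with a ratio of 4.66 ± 0.91 in day 7 myotubes and 3.64 ± 0.23 in day 0 myoblasts, and of 2.78 ± 0.54 with dexamethasone and 4.25 ± 0.98 with vehicle at 24 h.

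**Figure D5:**
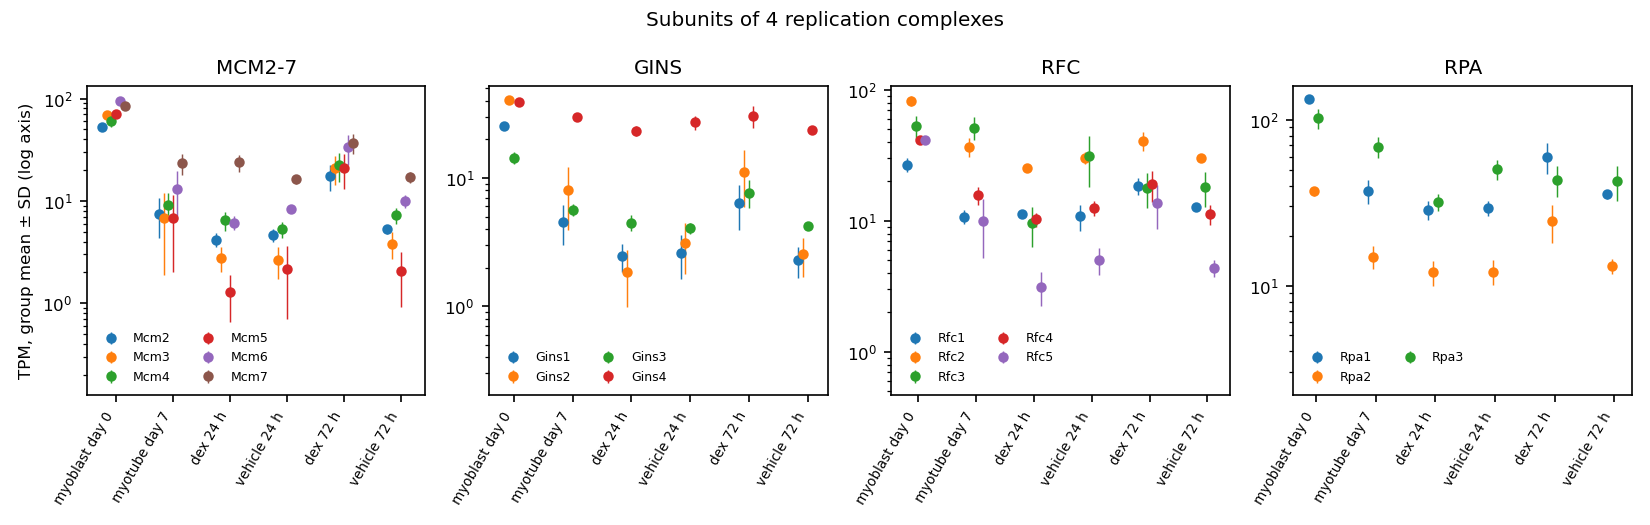
Mean TPM ± SD of the subunits of 4 complexes by group, on a log axis. The 6 MCM subunits lie close together in day 0 myoblasts and in dexamethasone 72 h, and are spread out in the other myotube groups, with Mcm7 on top and Mcm5 mostly lowest. Gins4 is the highest GINS subunit in every myotube group.

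Other genes of DNA replication followed the 42. Of 60 further replication genes, 43 were called higher and 2 lower with dexamethasone at 72 h. The share of all genes was 15.2% in each direction. Among the genes with the largest called difference in their list were Clspn, a mediator of the S phase checkpoint (fold 9.44), Asf1b, a histone chaperone (7.23), Chtf18, of an alternative clamp loader (5.26), and Mcm8, a helicase relative of the ring (2.23). Recql4, a helicase needed for origin firing, had a log2 difference of 1.61 (adjusted p = 8.6e-07). Tk2, the mitochondrial thymidine kinase, and Cmpk1, a nucleotide kinase, were called lower, with folds of 0.76 and 0.74. Samhd1, which breaks down deoxynucleotides, is given although the rule for naming genes of the other lists does not name it. At 24 h Samhd1 was at 42.6 ± 8.4 TPM with dexamethasone and 13.2 ± 1.3 TPM with vehicle, a fold of 3.23 (adjusted p = 2.67e-07). Its fold at 72 h was 1.52. In differentiation 47 of the 60 were called lower and 5 higher, against 29.8% and 30.5% of all genes. The 5 were Orc4, Top1, Tk2, Nme2 and Rbbp4, with log2 differences of 0.13 to 0.42.

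Regulators of the G1/S step moved in part. At 72 h 18 of 30 were called higher and 2 lower, against 15.2% of all genes in each direction. Ccnd1, which encodes cyclin D1, was at 78.8, 119, 78.0 and 88.0 TPM with dexamethasone, against 17.6, 7.45, 3.79 and 6.52 TPM with vehicle, a fold of 10.3 (adjusted p = 9.59e-06). No library overlapped. Ccne1 and Ccne2, the cyclins of S phase entry, which were chosen after their values were seen, had folds of 3.79 and 5.16. E2f5 and Cdkn2c were called lower, with folds of 0.77 and 0.79. Cdkn1a was at 2252 ± 587 TPM with dexamethasone and 2060 ± 241 TPM with vehicle at 72 h, and was not called (adjusted p = 0.657). In day 7 myotubes Cdkn1a was at 2192 ± 286 TPM, against 177 ± 37 TPM in myoblasts, a fold of 12.4. In that comparison 7 G1/S regulators were called higher, E2f2, E2f6, Ccnd3, Rb1, Rbl2, Cdkn1a and Cdkn1c, and 21 lower. These counts are 23.3% and 70% of the list, against 30.5% and 29.8% of all genes.

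Mitosis genes were set beside the replication genes as the later step of the cycle. All 18 were called higher with dexamethasone at 72 h, with a median fold of 6.69, and all 18 lower in day 7 myotubes than in myoblasts. The matching shares of all genes were 15.2% and 29.8%. Aurkb, a mitotic kinase, averaged 13.4 ± 8.0 TPM with dexamethasone and 1.55 ± 0.98 TPM with vehicle at 72 h (log2 difference 2.13, adjusted p = 0.000204). Relative to myoblasts, however, the mitosis genes were lower, with a median of 16.1% in dexamethasone 72 h and 2.54% in vehicle 72 h. Against day 7 myotubes none of the 18 was called in dexamethasone 72 h by limma, where 47.7% of all genes were called. None of the 18 had an unadjusted p under 0.05, and at most 1 was called in any alternative, lower.

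Genes used as markers of other cell types moved too. For the counts below, the share of all genes called was 15.2% higher and 15.2% lower at 72 h. At 24 h it was 13.2% higher and 12.2% lower. Of 10 tested markers of myoblasts and reserve cells, 4 were called higher and 2 lower with dexamethasone at 72 h, and the summed level of the 11 listed was 791 to 1015 TPM with dexamethasone and 429 to 546 TPM with vehicle. At 24 h, where few replication genes were called, 5 were higher and 1 lower and the sums were 770.2 to 909 TPM and 414 to 441 TPM. Myf5, a myoblast regulator, had folds of 6.01 at 72 h and 6.96 at 24 h, while Pax7, the satellite cell factor, had a fold of 0.37 at 72 h. Chrdl2 stayed below 0.5 TPM in every library. Of 7 tested fibroblast markers 6 were called lower at 72 h, with sums of 183 to 1527 TPM with dexamethasone and 2959 to 4080 TPM with vehicle, and Thy1 and Tcf21 stayed below 0.5 TPM throughout. Among adipocyte markers 2 of 4 tested were higher, with sums of 118 to 170.5 TPM and 37.2 to 63.7 TPM, while Adipoq, Plin1, Cidec and Lep stayed below 0.5 TPM in every library. The macrophage markers summed to 9.54 to 13.7 TPM and 7.18 to 10.5 TPM, with Ptprc, Adgre1, Csf1r and Itgam below 0.5 TPM. The endothelial markers summed to 0.36 to 0.67 TPM and 0.85 to 1.25 TPM. Of the 12 myotube markers 2 were called higher at 72 h, Ckm and Myh8, and 1 lower, Myh3, while Myog and Acta1, the skeletal actin, were not called, with folds of 0.92 and 1.20. Whether cells of these types were present, and whether they had a part in the rise of the replication genes, was not tested.

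In vehicle alone the replication genes were lower at 24 h than at day 7 by median, with few calls. The median fold was 0.658 over 39 members, and the summed level was 627 ± 99 TPM in vehicle 24 h and 907 ± 135 TPM at day 7. By limma 1 of 42 was called, Mcm10, which was lower (0.33 ± 0.17 TPM at vehicle 24 h and 1.20 ± 0.56 TPM at day 7, adjusted p = 0.0472), where 0.209% of all genes were called, 0.111% lower and 0.0984% higher. An unadjusted p under 0.05 was found for 28 members, but all genes were not counted at that threshold. The count of called members was 10 without vehicle 24 h replicate 3, 4 without vehicle 24 h replicate 1, and 0 without day 7 replicate 1, 3 or 4 or vehicle 24 h replicate 2 or 4. Between vehicle 72 h and vehicle 24 h none of the 42 was called by limma, where 4.36% of all genes were called, 2.67% higher and 1.69% lower. Here 2 members had an unadjusted p under 0.05, again with no count over all genes. The median fold between these groups was 0.97 over 39 members. On log2(TPM + 0.1) the split over all genes was 219 higher and 51 lower, against 434 and 275 in the log2 table, and the median of all genes was 0.134.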

How the data were processed

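Deposited expression values of 24 libraries were used. The authors deposited TPM per gene and a table of log2-scale expression values per gene. The submitters' processing notes name Salmon, kallisto 0.51.1, DESeq and build GRCm39 with no role, and the step that made the log2 values is not given in the sources used here. Genes with a linear value of 10 or more in at least 4 libraries were kept (16257), and limma 3.58.1 (R 4.3.3) was fitted with a trend to all 24 libraries, 1 mean per group, with Benjamini-Hochberg adjustment and a threshold of 0.05. Alternatives used TPM with a pseudocount of 0.1 or 1, no filter, quantile normalization, a replicate block, only the groups compared, and left-out libraries. The fit was tested on simulated data. Tables and figures used Python 3.11.15, pandas 2.3.3 and matplotlib 3.10.9.

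Values in every library are given for the most abundant member of each class, the members with the largest and smallest difference at 72 h, and members whose call differs from that of most. In the other lists the gene with the largest called difference and genes called against the majority are named. A gene that this rule names is not reported here. Members and lists were chosen with earlier results of these data known. Same-numbered replicates deviated together in differentiation (correlations of 0.145 to 0.212), at 24 h (0.201 to 0.391) and at 72 h (0.117 to 0.338). In the other comparisons the values were of both signs. They ran from −0.249 for replicate 3 to 0.565 for replicate 1, both in vehicle 72 h against vehicle 24 h. Correlations between libraries of different numbers were not computed, and the labels do not state a pairing. The main fit did not use the replicate number, which entered only in the alternative with a replicate block. Depth is unknown, so no counting interval is given.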

Additional observations from a re-analysis of the deposited data

Results flagged for a closer look

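In 6 of 72 groups of 4 values, 1 library lay farther from the rest than Dixon's 95% critical value allows, and chance gives about 1 in 20. Gins4 was high in dexamethasone 24 h replicate 3 (26.6 TPM) and in vehicle 24 h replicate 3 (32.0 TPM). Rpa3 was low in day 7 replicate 3 (53.7 TPM), and Cdc6 was high in day 7 replicate 1 (2.58 TPM). In vehicle 24 h replicate 3 the summed level of the 42 genes (775 TPM) and their median percent of the myoblast level (18.4%) were high.

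The dexamethasone response differed between 72 h and 24 h in 37 of the 42 genes by limma's test of that difference. Among the genes given in every library by the stated rule, the difference of the log2 responses, 72 h minus 24 h, was 2.82 for Uhrf1, 2.80 for Cdc6, 1.16 for Rfc3, 1.09 for Prim1, 0.86 for Pcna, 0.47 for Mcm7 and 0.45 for Gins4. The call of Mcm7 (limma adjusted p = 0.0428) was lost in 16 alternatives, with adjusted p of 0.0502 to 0.124, and that of Gins4 (0.0206) in 3, with adjusted p of 0.0526 to 0.0581.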

How the results depend on the processing

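No direction of a called result was reversed in any alternative run. Members called in differentiation ranged from 38 to 41, at 72 h from 36 to 39, in the difference of responses from 34 to 39, in dexamethasone 72 h against day 7 from 24 to 31 and against day 0 from 41 to 42. At 24 h the count was 6, leaving out 1 library gave 2 to 8, and with only the groups compared it was 9. For vehicle 24 h against day 7 it was 1, with 0 on log2(TPM + 0.1), on log2(TPM + 1), with no filter and with only the groups compared, and 0 to 10 on leaving out 1 library. For vehicle 72 h against vehicle 24 h it was 0, and 1 with the replicate block, in which Rfc3 was called. The replicate block, for the pairing by number, otherwise lost Mcm7 and gained Pold1 at 24 h and gained Rpa3 and Orc6 in the difference of responses. Over all genes, leaving out 1 library gave 2706 to 4358 calls at 24 h (4134 with all). For vehicle 24 h against day 7, 34 genes were called, with 4 on log2(TPM + 0.1), 109 with the replicate block and 328 without vehicle 24 h replicate 3. None was called with only the groups compared, without day 7 replicate 1 or 4, or without vehicle 24 h replicate 2 or 4. For vehicle 72 h against vehicle 24 h, 709 were called, with 270 on log2(TPM + 0.1), 94 with no filter and 1067 with the replicate block. With only the groups compared 4 were called. The count was 19 without vehicle 24 h replicate 1, 1751 without replicate 2 and 2 without replicate 3 of that group. Without vehicle 72 h replicate 3 it was 5. The cause was not tested. The unknown depth limits what can be said of genes below 0.5 TPM.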
